A study of Mus musculus with 5 samples.

Results

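Solute carriers are the membrane proteins that move ions, nutrients and metabolites across membranes without splitting ATP themselves. The genes described here are those whose symbol begins with Slc and a number, leaving out Slc3a2, measured by array probes that the platform annotation assigns to exactly 1 gene symbol. This choice gave 194 of the 9669 genes on the array, from 227 probes. Of these, 25 encode mitochondrial carriers of the Slc25 family, 165 encode other carriers and 4 carry such a symbol without being carriers. The study compared NIH3T3, an immortalised mouse fibroblast line, with Erbb2+ fibroblasts, which are NIH3T3 cells that stably overexpress human ERBB2 (HER-2/neu), a receptor tyrosine kinase, from the cytomegalovirus promoter. The labels do not say whether the transfected line is 1 clone. Both lines were cultured in the same serum-containing medium, and no other treatment is labelled. Total RNA of both was hybridised together to 5 two-colour cDNA arrays, 3 of preparation A (A1, A2 and A3) and 2 of preparation B (B1 and B2). The dyes were exchanged between arrays, with Erbb2+ cDNA in Cy3 on A1, A2 and B1 and in Cy5 on A3 and B2.

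Every value below is a log2 ratio of Erbb2+ over NIH3T3 cells, so that 1 is a doubling, and a mean ± SD is over the 2 preparations. The direction is likely but not settled, since the sources used here do not say which dye is the numerator. Cy5 was taken as such, and the opposite reading turns every sign. Nothing in the labels says that the preparations were separate cultures, so p-values measure only the spread between these samples, which may be technical. With 2 preparations, limma drew the variance of a gene mostly from all features tested, at 10.2 prior against 1 residual degrees of freedom. The intervals and p-values thus rest mainly on this shared variance and less on the SD printed for a gene. The arrays measured RNA of whole cultures, and fewer cells with a transcript and less transcript per cell cannot be told apart.

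As background, carriers divide by substrate and place. At the plasma membrane, amino acid, sugar, choline and ion carriers let a cell draw on its medium, many of them by coupling uptake to the sodium gradient. Carriers of the Golgi apparatus, endoplasmic reticulum and vesicles load nucleotide sugars, zinc and other solutes into these compartments. The Slc25 family exchanges nucleotides, phosphate, metabolites and iron across the inner mitochondrial membrane. Growing cells are known for high demand for glucose, glutamine, essential amino acids and phosphate, which is why these families are followed in cells with an active receptor tyrosine kinase.

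Of the carriers that could be tested, few passed the test for a difference between the lines. Slc44a1, Slc1a3 and Slc6a9, all of the plasma membrane, fell. They carry choline, glutamate and glycine. Slc7a7, a plasma membrane carrier of cationic amino acids, and Slc25a37, a mitochondrial carrier of iron, rose. These were 5 of the 57 Slc genes that could be tested, which needed a value in both dye orientations of both preparations, at an adjusted p under 0.05 (limma, Benjamini-Hochberg over all 4892 features tested). Over all features 6.79% passed, 2.25% higher and 4.54% lower, so the 8.77% among Slc genes was near the background. At an unadjusted p under 0.05 the shares were 24.6% of the Slc genes and 22.9% of all features. In a second limma fit, of the 5 arrays with a dye term, 9 Slc genes and 9.44% of all features passed. Of the remaining Slc genes, 128 had values on some arrays but were not tested, and 9 had a value on no array, among them Slc25a1, Slc29a1 and Slc38a1.

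**Figure D1:**
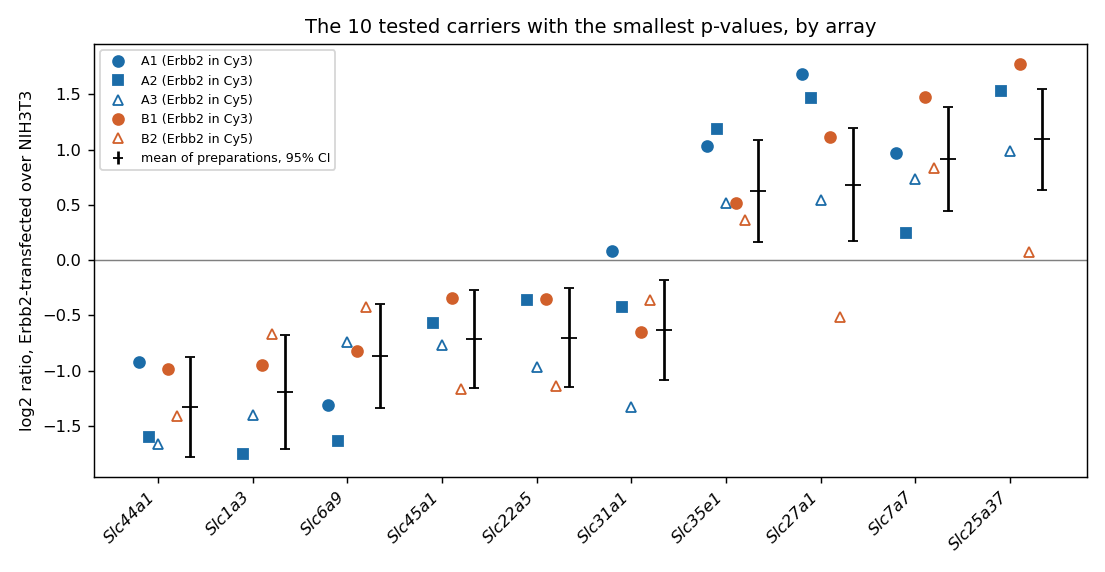
Log2 ratio of Erbb2+ over NIH3T3 cells (vertical axis) on each array for the 10 tested carriers with the smallest p-values, ordered by their mean. Blue symbols are arrays of preparation A and orange of preparation B, open triangles are arrays with Erbb2+ cDNA in Cy5, and black bars are the mean of the 2 preparations with limma's 95% confidence interval. Slc44a1, Slc1a3 and Slc6a9 lie below 0 on every array with a value, Slc7a7 and Slc25a37 above 0, the latter with 0.07 on B2.

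Coverage differed between arrays. Values were present for 44 of the 194 Slc genes on A1, 112 on A2, 66 on A3, 180 on B1 and 125 on B2, and 31 genes had all 5. On A1 this was 22.7% of the Slc genes against 34.1% of all genes, and on B1 92.8% against 88.6%. Of the fibroblast markers, 6 of 11 were tested. Col1a1, Col1a2 and Fn1, of collagen and fibronectin, fell and had means of -4.93, -3.97 and -4.61, while Vim, the vimentin gene, had 0.47 ± 0.32 and did not pass. A further collagen, Col3a1, had 2.70, 0.78 and 0.69 in preparation A and 0.26 and -0.64 in B (mean 0.51), and S100a4 had a mean of -0.01. Neither passed. Of the markers of epithelium, endothelium and muscle, 3 were tested and 0 passed limma's test, with 0 at an unadjusted p under 0.05 and 0 in limma's fit of the 5 arrays. Leukocyte and adipocyte markers could not be tested. The part of the fibroblast markers in the carrier results was not tested, and ratios do not show at what level a marker was present.

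The largest fall was that of Slc44a1, a choline carrier of the plasma membrane that supplies phospholipid synthesis. Preparation A gave -0.92, -1.60 and -1.66 (arrays A1, A2, A3), and preparation B gave -0.98 and -1.41 (arrays B1, B2). All arrays lay below 0, and the preparations overlapped. The mean was -1.33 ± 0.19 (SD, n = 2), 2.51-fold lower in Erbb2+ cells, with a 95% confidence interval of -1.78 to -0.87 and an adjusted p of 0.00323 by limma. It passed in all 16 alternative settings that could test it, with means between -1.43 and -1.22. On A1 and B1 its value was a ratio of whole numbers up to 100, which is typical of dim spots, and without such values it could not be tested. Slc44a2, its relative in the same family, had -0.55, 0.97, -0.10, 0.75 and -0.33 on A1, A2, A3, B1 and B2 and did not pass (0.13, interval -0.32 to 0.58).

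Slc1a3 encodes GLAST, a sodium-coupled carrier that takes up glutamate and aspartate. Its probe gave -1.76 on A2, -1.40 on A3, -0.95 on B1 and -0.67 on B2, with no value on A1. All 4 arrays were below 0, and the arrays of preparation A were lower than those of B. Its value on A3, the single one of preparation A with Erbb2+ in Cy5, was a ratio of small whole numbers, and without such values it could not be tested. The mean of -1.19 ± 0.55 (SD, n = 2) was a 2.29-fold difference with an interval of -1.71 to -0.68 (adjusted p = 0.0112, limma). The difference of B minus A, 0.77, did not pass limma's test (adjusted p = 0.784).

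Slc6a9 encodes GlyT1, a sodium- and chloride-coupled glycine carrier, and is known as a gene of the amino acid response driven by ATF4. In preparation A it had -1.31, -1.64 and -0.74 on A1, A2 and A3. In preparation B, B1 had -0.83 and B2 -0.43. All 5 arrays were below 0, lowest on A1 and A2. The mean was -0.87 ± 0.34 (SD, n = 2), with an interval of -1.34 to -0.39 (adjusted p = 0.0354, limma). The call was lost without array A3 (adjusted p = 0.0711, limma) and without array B1, while the mean stayed below 0, at -1.05 and -0.77. Each omission left a preparation with a single dye orientation, so array and dye cannot be told apart there.

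Slc7a7 encodes y+LAT1, a light chain that joins the heavy chain Slc3a2 to export cationic amino acids in exchange for neutral ones. It had 0.97, 0.25 and 0.74 in preparation A, in the order of the arrays, and 1.48 and 0.84 in preparation B. All arrays were above 0, with A2 the lowest. Its values on A2 and B2 were ratios of small whole numbers, and without such values it could not be tested. The mean was 0.92 ± 0.34 (SD, n = 2), with an interval of 0.44 to 1.39 (adjusted p = 0.0279, limma). Without array A3 (adjusted p = 0.124, limma) or array B1 it did not pass, and each omission left a preparation with a single dye orientation.

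Slc25a37 encodes mitoferrin-1, which carries iron into mitochondria. It had 1.53 on A2, 0.99 on A3, 1.78 on B1 and 0.07 on B2, with none on A1, so the arrays with Erbb2+ cDNA in Cy3 were the higher ones and B2 lay close to 0. The mean of 1.09 ± 0.24 (SD, n = 2) does not show this spread, since dye orientations were averaged within each preparation. Its interval was 0.63 to 1.55 (adjusted p = 0.0108, limma). The ratio with Erbb2+ in Cy5 was lower by 1.13 than that with Erbb2+ in Cy3 (unadjusted p = 0.0219, adjusted p = 0.282, limma). Without array B1, which left preparation B with B2 alone and a single dye orientation, the mean was 0.67 and the gene was not called. Array and dye cannot be told apart there. Without array A2 neither this gene nor Slc1a3 could be tested.

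The sequences before the transcription starts of these genes are shown because they are the members that passed the test. The table of RefSeq promoter windows used here, of mouse assembly GRCm38.p6, lists 4 of the 5 genes and not Slc25a37. The 250 bases before the first listed start are printed, with searched motifs in capitals. The motifs were TGATGNAA, the core of the amino acid response element, TGANTCA for AP-1, CACGTG, the E-box, and GGGCGG, the GC box, each on both strands.
Slc44a1, chr4:53440163-53440412, plus strand: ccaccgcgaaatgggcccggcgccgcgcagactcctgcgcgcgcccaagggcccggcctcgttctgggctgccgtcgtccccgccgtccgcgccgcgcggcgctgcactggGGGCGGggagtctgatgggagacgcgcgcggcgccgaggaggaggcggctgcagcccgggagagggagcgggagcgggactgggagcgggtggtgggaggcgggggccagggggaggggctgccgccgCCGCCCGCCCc
Slc1a3, chr15:8710808-8711057, minus strand: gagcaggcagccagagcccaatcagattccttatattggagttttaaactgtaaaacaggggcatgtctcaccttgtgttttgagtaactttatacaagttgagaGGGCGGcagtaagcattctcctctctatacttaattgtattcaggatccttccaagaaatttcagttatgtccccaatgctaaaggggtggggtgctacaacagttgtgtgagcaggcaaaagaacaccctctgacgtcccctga
Slc6a9, chr4:117835008-117835257, plus strand: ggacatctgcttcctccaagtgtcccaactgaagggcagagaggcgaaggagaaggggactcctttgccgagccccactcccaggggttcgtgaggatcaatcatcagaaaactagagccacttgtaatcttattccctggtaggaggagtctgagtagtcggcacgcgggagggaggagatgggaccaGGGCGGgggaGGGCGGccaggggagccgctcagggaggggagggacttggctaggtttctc
Slc7a7, chr14:54417945-54418194, minus strand: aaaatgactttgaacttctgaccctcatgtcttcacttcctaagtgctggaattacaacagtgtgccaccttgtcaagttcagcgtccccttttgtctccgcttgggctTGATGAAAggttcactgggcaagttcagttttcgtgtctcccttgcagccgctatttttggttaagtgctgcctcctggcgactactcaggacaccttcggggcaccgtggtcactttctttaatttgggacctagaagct
The amino acid response core was found once in this set, before Slc7a7, as TGATGAAA at 141 bases before the start. It was also present before the second of the 5 listed starts of Slc7a7, as TGATGCAA, and before none of the 3 listed starts of Slc6a9. Among all 32851 windows of the same length, 3.45% held this core. Slc44a1, Slc1a3 and Slc6a9 held 3, 1 and 2 GC boxes, which overlapped in part for Slc44a1, against 32.7% of all windows with at least 1. AP-1 sites and E-boxes, in 6.75% and 6.02% of all windows, were not matched in these 4. A match is a description of letters and not of binding.

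Among amino acid and peptide carriers, 38 genes were on the array and 10 were tested. Of these 1 rose, 2 fell and 7 did not pass, where 2.25% of all features were higher and 4.54% lower. The median was -0.10 against -0.04 over all genes tested. The heavy chain Slc3a2, which is no member, forms exchangers with Slc7a5, Slc7a6, Slc7a7 and Slc7a8, and it had 0.69 on A2, 0.25 on A3 and -0.29 on B1. Of its light chains, Slc7a7 rose, as given above. Slc7a5, or LAT1, which takes up essential amino acids, had -1.03 on A1, -0.53 on A2, -0.03 on B1 and -0.09 on B2. Slc7a8, or LAT2, had -0.99, -0.33 and -0.19 on A1, A2 and B1. The light chain Slc7a6 had a mean of -0.14, with an interval of -0.61 to 0.34. Its probes differed, at 0.12 and 0.62 on A2 and at 0.13 and -1.13 on B2. Slc7a5 and Slc7a8 had no value on A3 and were not tested, so of the heavy chain and its partners measured, 1 has a value called.

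The remaining amino acid carriers showed smaller or mixed ratios. Slc7a1, the main carrier of arginine and lysine, had 0.43, 0.44 and 0.25 in preparation A and 0.01 and -0.04 in B (mean 0.16, interval -0.30 to 0.62). Slc1a4, a carrier of alanine and serine, had 0.03, 0.48, -1.23, 0.62 and 0.11 on A1, A2, A3, B1 and B2, so that A3 stood lowest. Its B2 value averaged probes at -0.24 and 0.47. The glutamine carrier Slc1a5 had 0.37 on B1 alone. Slc38a2, a sodium-coupled carrier induced by amino acid shortage, had -0.62 on A2 and 0.29 on B1. The probe with values on both arrays gave -0.62 and -0.11, and the other probe of this gene gave 0.68 on B1 alone. Of the 8 carrier genes listed as ATF4 targets, 6 had values, 3 were tested and 1, Slc6a9, fell, with a median of -0.06. Slc38a7, a glutamine carrier of the lysosome, had 0.68, 0.32 and 0.97 on A2, B1 and B2 and was not tested. Slc38a10 had 0.03, -0.21, -0.32 and -1.48 on A2, A3, B1 and B2, the last being far the lowest, and did not pass (mean -0.50).

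**Figure D2:**
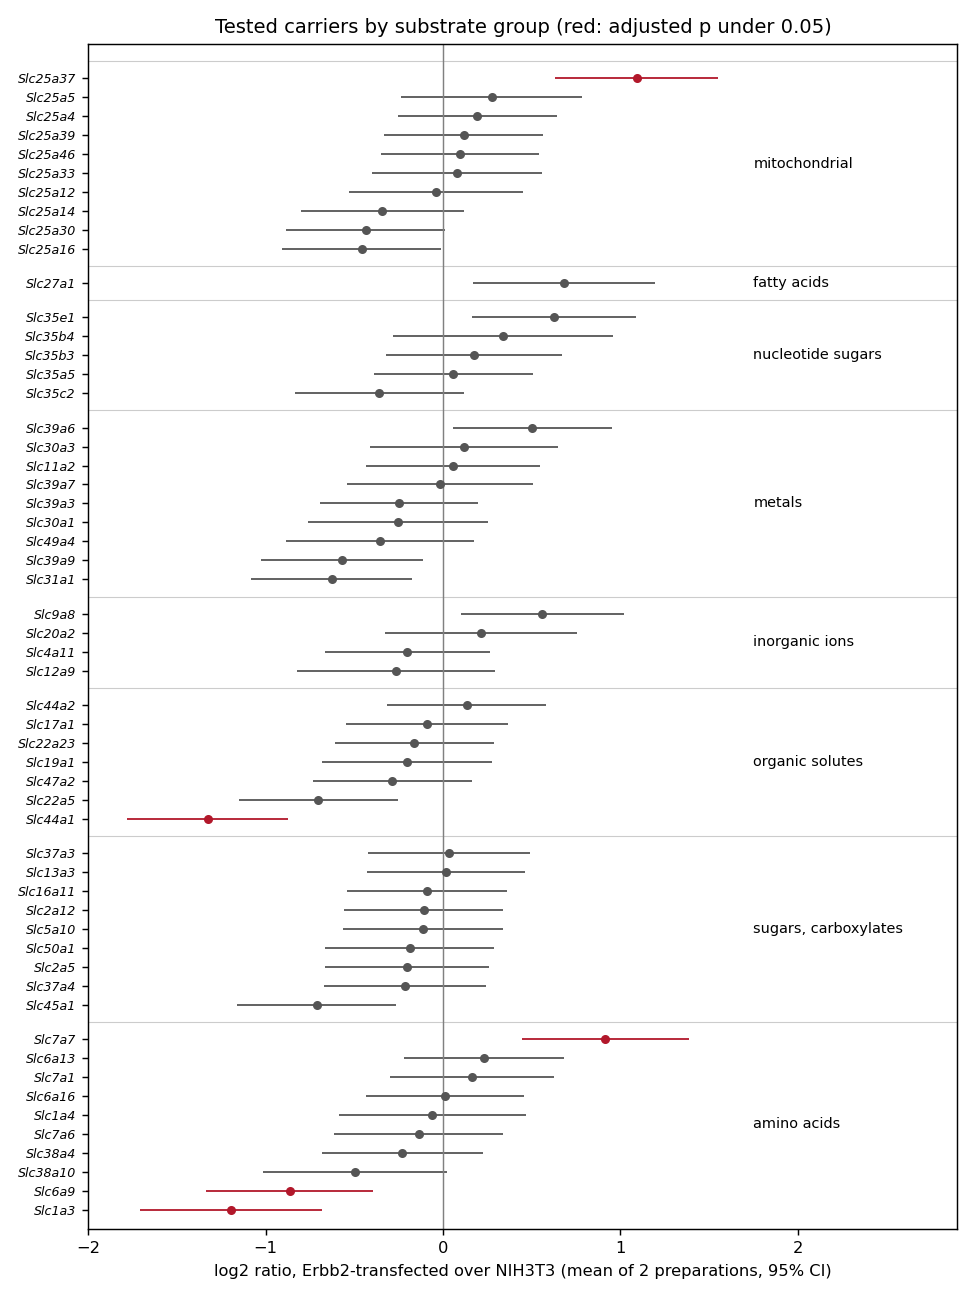
Mean log2 ratio of Erbb2+ over NIH3T3 cells over 2 preparations (horizontal axis) with limma's 95% confidence interval for each of the 55 tested carriers, grouped by substrate. Red marks the 5 carriers with an adjusted p under 0.05; 14 intervals in all leave out 0, and medians of groups with at least 4 tested carriers range from -0.25 for metal carriers to 0.17 for nucleotide sugar carriers.

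No carrier of sugars and carboxylates was called in limma's test. Of 28 genes 9 were tested and 0 passed, with 1 at an unadjusted p under 0.05 and 1 in limma's fit of the 5 arrays. That gene was Slc45a1, a proton-coupled glucose carrier, with -0.57 on A2, -0.77 on A3, -0.34 on B1 and -1.17 on B2. All arrays were below 0, and its mean was -0.71 ± 0.06 (SD, n = 2; adjusted p = 0.0608, limma). Slc2a1, or GLUT1, the common glucose carrier of cultured cells, had 0.30, 0.20, -0.28 and 0.11 on A1, A2, B1 and B2 and was not tested. Slc2a3, another glucose carrier, had 0.12 on B1 alone. Slc16a3, or MCT4, which exports lactate, had -0.34 on B1 and -0.92 on B2 and no value in preparation A.

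Slc37a4 and Slc2a5 had different ratios in the 2 dye orientations. Slc37a4, the glucose 6-phosphate carrier of the endoplasmic reticulum, had 0.63, -0.24 and 0.70 on A1, A2 and B1 and -0.93 and -0.82 on A3 and B2. Its mean was -0.21, with an interval of -0.67 to 0.24, and its dye difference was -1.29 (unadjusted p = 0.00532, adjusted p = 0.174, limma). The fructose carrier Slc2a5 had -0.87, -0.28 and -0.87 with Erbb2+ in Cy3 and 0.53 and 0.11 with Erbb2+ in Cy5. Of the 57 tested Slc genes, 0 had a dye effect at an adjusted p under 0.05 and 6 at an unadjusted p under 0.05, against 0.593% and 13.2% of all features.

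The carriers of organic solutes, such as choline, carnitine, folate and drugs, comprised 31 genes, of which 7 were tested. Slc44a1 fell and 6 did not pass, where 4.54% of all features were lower. The median was -0.20, with 6 of the 7 below 0. Slc22a5, or OCTN2, the sodium-coupled carnitine carrier, had -0.36 on A2, -0.96 on A3, -0.35 on B1 and -1.14 on B2. All were below 0, the arrays with Erbb2+ in Cy5 being lower. The mean of -0.70 ± 0.06 (SD, n = 2) missed the threshold (adjusted p = 0.0635, limma) and passed in limma's fit of the 5 arrays (adjusted p = 0.0449). Slc19a1, the reduced folate carrier, had 0.02, 0.48 and -0.12 in preparation A and -0.25 and -0.69 in B, with an interval of -0.68 to 0.28. Slc47a2, which extrudes organic cations, had -0.27 on A2, -0.30 on A3, -0.89 on B1 and 0.31 on B2.

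Of 26 carriers of inorganic ions 4 were tested and 0 passed by limma, with 1 at an unadjusted p under 0.05 and 0 in the fit of the 5 arrays. Slc9a8, a sodium-proton exchanger of the Golgi, was that gene, with 0.98, 0.48, 0.63 and 0.15 on A2, A3, B1 and B2 (mean 0.56, adjusted p = 0.143). The phosphate carrier Slc20a2 had 0.66, 0.46 and 0.80 on the arrays of preparation A against 0.01 and -0.51 on those of B. Preparation A was thus above B throughout, and the mean was 0.21 ± 0.66 (SD, n = 2). The other phosphate carrier of this type, Slc20a1, had -0.25 and -0.23 on A1 and A2 and 0.21 on B1, the opposite order. Slc12a9, a relative of the cation-chloride cotransporters, had -0.93 on A1, -0.62 on A3, 0.21 on B1 and 0.28 on B2. Slc12a7, which exports potassium with chloride, had 0.64, 0.25 and 1.16 on A2, B1 and B2, and the sodium-proton exchanger Slc9a5 0.65, 0.43 and 0.89. Neither was tested.

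Metal carriers comprised 20 genes, all with a value on some array, and 9 were tested. Of these 0 passed limma's test and 0 the fit of the 5 arrays. At an unadjusted p under 0.05 by limma there were 3, where 22.9% of all features passed. The tested metal carriers had a median of -0.25, with 6 below 0 and 3 above. Slc31a1, the high-affinity copper carrier, had 0.08, -0.42 and -1.33 in preparation A and -0.65 and -0.36 in B, with A1 the single array above 0 (mean -0.63, adjusted p = 0.0979). Zinc carriers went both ways. Slc39a9 had -0.40, -1.02, -0.30 and -0.56 on A2, A3, B1 and B2, whereas Slc39a6 had 0.11, 0.80, 0.29 and 0.81. Slc39a14, which takes up zinc and iron, had 0.56 on A2 and 0.81 on B1. Slc39a1, the zinc importer ZIP1, gave 0.06 in preparation A (A2) and -0.23 and -0.15 in B, where the B2 value averaged probes at -0.58 and 0.29. The zinc exporter Slc30a1 had -0.43 and -0.82 in preparation A and 0.21 and 0.02 in B, where the B2 value averaged probes at -0.35 and 0.38. Slc11a2, the divalent metal carrier DMT1, lay at 0.055, with an interval of -0.43 to 0.54.

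Nucleotide sugar carriers of the Slc35 family feed glycosylation in the Golgi and endoplasmic reticulum. Of 18 genes 5 were tested and 0 passed by limma, with 1 at an unadjusted p under 0.05 and 1 in the fit of the 5 arrays. In both cases this was Slc35e1, a member of unknown substrate, with 1.03, 1.19 and 0.51 in preparation A and 0.52 and 0.37 in B. All arrays were above 0, and the mean was 0.63 ± 0.26 (SD, n = 2; adjusted p = 0.105, limma). Slc35b4 had 1.88, -0.30 and 1.19 in preparation A and -0.02 and -0.61 in B, but its 2 probes differed, with -0.92 and 0.32 on A2. Slc35c2 had 0.08, -0.36 and -1.08 in preparation A and 0.03 and -0.24 in B, so that A3 was the lowest (mean -0.36, interval -0.83 to 0.12). Slc35e3, untested, had -0.84, -0.41 and -0.85 on A2, B1 and B2. Slc27a1, a fatty acid transport protein and the single tested gene of its group, had 1.68, 1.47 and 1.12 on A1, A2 and B1, 0.55 on A3 and -0.51 on B2. Its mean of 0.68 ± 0.54 (SD, n = 2) did not pass (adjusted p = 0.11, limma). Its dye difference was -1.29 (unadjusted p = 0.00376, adjusted p = 0.148, limma). Without array B2, which left preparation B with a single dye orientation, the mean of Slc27a1 was 1.09. In limma's fit of the 5 arrays the gene passed (adjusted p = 0.0455).

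Of the 25 mitochondrial Slc25 carriers 24 had a value and 10 were tested, of which Slc25a37 rose and 9 did not pass. The median of the family was 0.09, at -0.15 in preparation A and 0.15 in preparation B. The other tested carriers had means between -0.46 and 0.27. Slc25a16 had -0.51, -0.26, -0.01 and -1.05 on A2, A3, B1 and B2. Slc25a30, a relative of the uncoupling proteins, had -0.09, -0.71, -0.01 and -0.95 on the same arrays. Both were below 0 throughout but lay close to 0 on B1, and neither passed (adjusted p = 0.211 and 0.228, limma).

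The adenine nucleotide carriers, which exchange ADP for ATP, did not pass. Slc25a4, or ANT1, had -0.25, 0.27 and 0.54 in preparation A and 0.61 and -0.38 in B, with an interval of -0.26 to 0.64. Slc25a5, or ANT2, had -0.74, -0.79 and 0.54 in preparation A and 0.86 and 0.46 in B. A1 and A2 were thus low and the other arrays high, with a mean of 0.27 ± 0.54 (SD, n = 2). These genes are close in sequence, so their separate values on cDNA probes are uncertain. Slc25a3, which brings phosphate to the ATP synthase, had -0.17 on B1 and 0.23 on B2.

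The aspartate-glutamate carriers of the malate-aspartate shuttle had their highest values in preparation B. Slc25a12 had -0.61, -0.53 and -0.12 in preparation A and 0.15 and 0.37 in B. Slc25a13 had 0.19 on A2 and 0.79 and 1.10 on B1 and B2, all above 0. Further carriers of this shuttle and of dicarboxylates had few values, with 0.47 on B1 for Slc25a11 and 0.90 on B1 against -1.13 on B2 for Slc25a10. Slc25a25 and Slc25a41, which exchange magnesium-ATP for phosphate, were above 0 on all 3 arrays with a value. For Slc25a25 these were 0.44, 0.33 and 0.34 on A2, B1 and B2, and for Slc25a41 0.05, 0.54 and 0.53. Slc25a29, a carrier of basic amino acids, had 0.62, 0.21 and 0.17 on the same arrays.

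Of the 44 untested carriers with 3 or more values, 16 had 1 sign on every array, 9 above and 7 below 0. This was 36.4%, against 32.4% of all 5404 untested features with 3 or more values, 17.3% above and 15.1% below. All 16 had values in both preparations. Among tested Slc genes 14 of 57 had 1 sign throughout, or 24.6%, against 24.3% of all features tested. Besides those given above, the 16 included Slc7a4, Slc39a11, Slc22a16, Slc35a1, Slc29a3 and Slc66a1, with means over arrays between -0.35 and 0.31.

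**Figure D3:**
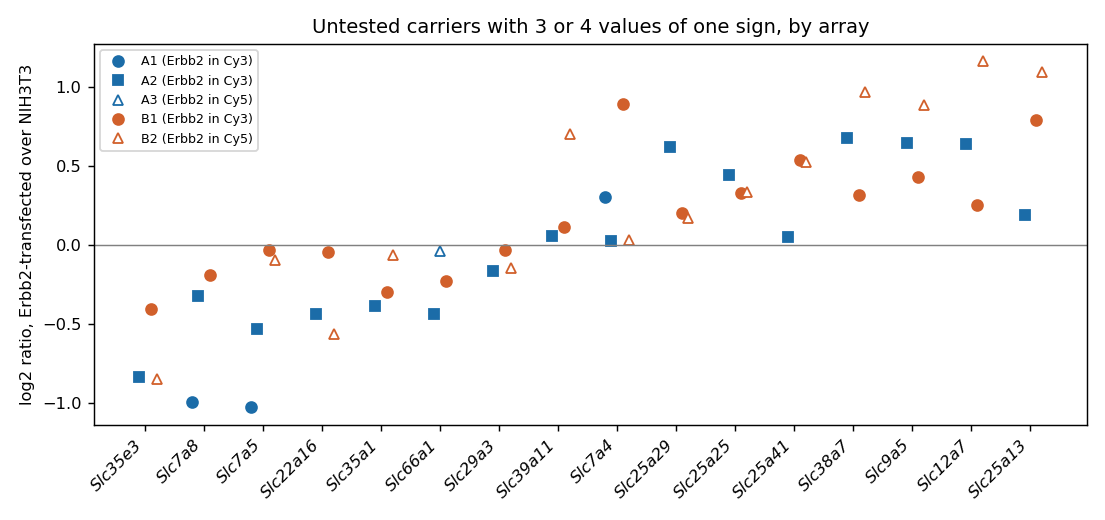
Log2 ratio of Erbb2+ over NIH3T3 cells (vertical axis) on each array for the 16 untested carriers with 3 or 4 values of 1 sign, ordered by their mean over arrays. Symbols stand for arrays as named in the key. Means run from -0.70 for Slc35e3 to 0.69 for Slc25a13, and only Slc66a1 has a value on A3.

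By place in the cell, 32 carriers of the plasma membrane were tested, of which 1 rose, 3 fell and 28 did not pass, and 23 lay below 0. Over all features 2.25% passed as higher and 4.54% as lower. The median of the plasma membrane carriers was -0.20, with quartiles of -0.39 and 0.01. The 13 tested carriers of other organelles had a median of 0.06, and 0 passed by limma, with 3 at an unadjusted p under 0.05 and 2 in the fit of the 5 arrays. Over all genes tested, 1694 of 3134 lay below 0, and the median was -0.04, with quartiles of -0.29 and 0.20. The quartiles of both groups overlap those of all genes, and the medians were compared as descriptions with no test. Place was assigned by family number with listed exceptions, so single genes may be misplaced. Slc39a9, Slc38a10 and Slc49a4 were counted with the plasma membrane and Slc27a1 with other organelles.

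Preparations A and B were compared on the 5 arrays. Between them 0 of the 57 tested Slc genes differed at an adjusted p under 0.05 by limma, with 4 at an unadjusted p under 0.05, against 0.0204% and 6.75% of all features. Those 4 Slc genes were Slc12a9, Slc20a2, Slc35b4 and Slc39a7, not all of them among the largest differences. The 4 carriers with the largest differences of B minus A were Slc35b4 at -1.24, Slc12a9 at 1.02, Slc25a5 at 0.89 and Slc49a4 at 0.88. Slc49a4, placed among metal carriers by its family number, had -0.31 on A2, -1.28 on A3, 0.27 on B1 and -0.10 on B2.

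**Figure D4:**
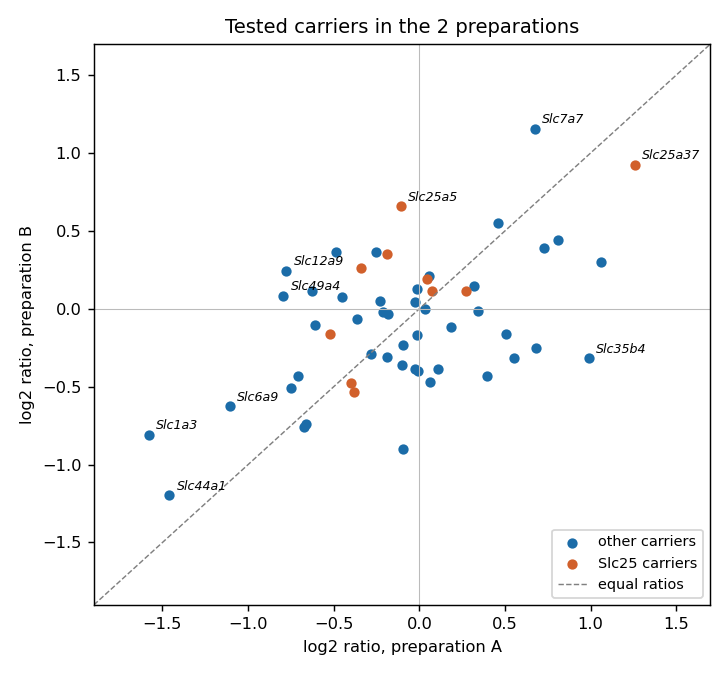
Log2 ratio of Erbb2+ over NIH3T3 cells in preparation A (horizontal axis) and preparation B (vertical axis) for the 55 tested carriers, with mitochondrial Slc25 carriers in orange and other carriers in blue. Each point is a gene, the dashed line marks equal ratios, and the called carriers and the 4 with the largest differences are named. Slc44a1 lies at -1.46 and -1.19, near the line, and Slc35b4 at 0.99 and -0.32, far from it.

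Proteins that work with carriers were read from a list of 27 genes, of which 16 had values, 9 were tested and 0 passed by limma, with 2 at an unadjusted p under 0.05 and 0 in the fit of the 5 arrays. Bsg, the chaperone of monocarboxylate carriers, had -0.99, -0.58 and 0.22 in preparation A and -0.83 and -0.52 in B (mean -0.48, adjusted p = 0.206). Sfxn3, a mitochondrial serine carrier outside the Slc symbols, had -0.46, -0.87, -0.08 and -0.95 on A2, A3, B1 and B2. Oxsr1, a kinase that regulates cation-chloride cotransporters, was above 0 on every array, with a mean of 0.44. Txnip, which restrains glucose uptake, had -1.23 on B1 and -1.74 on B2 and was not tested. Among genes taken by symbol from other transport families, 8 ABC family members were tested with a median of 0.08 and 2 P-type pumps with 0.21. Of these 0 passed by limma, with 1 and 0 at an unadjusted p under 0.05 and 1 and 0 in the fit of the 5 arrays. The ABC gene at an unadjusted p under 0.05 was Abcf1 (mean 0.63). Abcf1, Abcf2 and Abce1, all among the 8, encode soluble proteins and not membrane transporters.

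The 4 Slc symbols that are not carriers comprised 2 tested genes, neither of which passed. Slc9a3r1, the scaffold NHERF1, had -0.52 and -0.07 with Erbb2+ in Cy3 and 0.70 and 0.94 with Erbb2+ in Cy5. Slc4a1ap, an adaptor protein, was below 0 on every array, with a mean of -0.40.

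Where a carrier had several probes, they did not always give the same ratio. In 51 combinations of a gene and an array with more than 1 probe, from 25 genes, the median range between probes was 0.44, and in 24 the probes had both signs. Each of the 5 called carriers was measured by 1 probe, so no second probe bears on those values.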

How the data were processed

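Both cell lines were labelled with Cy3 or Cy5 and hybridised together. Per the labels, scanning by the authors used a GenePix 4000A and GenePix Pro 3.0, background was subtracted from mean intensities, and the median ratio was set to 1. The values, as deposited, are log2 ratios. Base 2 was read from the values. On A2, 57.5% equalled a constant plus log2 of m/n, with m and n whole and at most 300 (tolerance 6e-07). After a shift 1.52% did, and under a natural logarithm 1.35%. Medians of the deposited columns were 0.00035 (A1), 0.0007 (A2), 0.0071 (A3), -0.0017 (B1) and 0.0066 (B2). Arrays of opposite dye orientation correlated between -0.54 and -0.17, so the deposited values follow the dyes, and A1, A2 and B1 were turned here. The rule for empty values, and which dye is the numerator, are not stated in the labels. The platform annotation gives 11723 of the 20205 probes 1 gene symbol and 806 several, and it does not list 7676. All 194 Slc symbols were found in RefSeq's gene table.

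Probes of a gene were averaged. Dye orientations were averaged within a preparation, and the resulting values per preparation entered lmFit and eBayes (limma 3.58.1, R 4.3.3) over 4892 features, for a difference from 0, with 10.2 prior and 1 residual degrees of freedom and a threshold of 0.05. Preparation and dye were tested on the 5 arrays, each counted as a replicate. The procedure was run on simulated data with independent noise on each array, as a check of the code. That check does not show how the test behaves with noise shared within a preparation. Named genes are the called ones, up to 3 of largest ratio per substrate group, up to 10 untested ones of 1 sign, well-known and ATF4-related carriers, and those differing most between preparations. Other genes named were chosen after their values were seen. Substrate groups and places in the cell follow family numbers, with listed exceptions. Members and lists were chosen with earlier results of these data known, and 3 family entries (Slc66, Slc2a4rg-ps, Slc6a19os) were placed once the symbols were seen. Arrays limit the precision by their number. Figures used matplotlib 3.10.9 under Python 3.11.15.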

Additional observations from a re-analysis of the deposited data

Results flagged for a closer look

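Slc1a1, a neuronal and epithelial glutamate carrier, had -0.35 and -0.27 on A1 and A2 and 0.31 and 0.20 on B1 and B2, a difference of B minus A of 0.56. Its 2 probes disagreed on B2, at -0.25 and 0.64. The probe at -0.25 was the one with values on all of these arrays, so by that probe B2 lay on the side of preparation A. Slc17a7, a vesicular glutamate carrier, had -0.16 and -0.32 on A1 and A2 and 0.24 and 0.02 on B1 and B2, a difference of 0.37. Both genes were picked out because, by the mean of their probes, the arrays of one preparation lay on the other side of 0 from those of the other. Neither difference was tested, since A3 gave no value for either gene. The 32 genes with 4 or 5 values that were named by rule were checked by Dixon's criterion. Of these 0 had a single array apart from the others, which chance meets in about 5% of genes. Genes named after their values were seen, such as Slc38a10, were not among the 32.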

How the results depend on the processing

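The number of called Slc genes, 5 as reported, was 9 on the 5 arrays with a dye term (4 higher and 5 lower), and the same numbers were found with preparation as a random block, where 509 features were called. It was 2 (1 and 1) with arrays scaled to equal spread, where 112 features were called, 3 (1 higher) for features with values on all 5 arrays and 1 (0 and 1) for features with a value in each preparation, where 149 were called of 11817. It was 8 (5 lower) with only probes measured in both orientations of both preparations, where 564 features were called. Without ratios of small whole numbers, an alternative chosen after seeing the data, it was 2 (1 and 1). Slc44a1, Slc1a3 and Slc7a7 could not be tested there, and Slc6a9 and Slc25a37 stayed called. Arrays centred on their median and the median of probes each gave 5 lower. Leaving out 1 array gave 198 to 498 features and 2 to 8 Slc genes, with 0 to 3 higher and 2 to 6 lower. The low count came without B1 and the high one without A1, and without A2 or A3 it was 3. Plain means, quantile normalization and the robust variance estimate kept all these counts within 1.5 times. With values on all 5 arrays required, or without A2, Slc1a3 and Slc25a37 could not be tested, and Slc44a1, Slc6a9 and Slc7a7 stayed called. Leaving out A3, B1 or B2 left a preparation with a single dye orientation, so those results do not separate array from dye.

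The median of all carriers, -0.09, was -0.040 for features with values on all 5 arrays, -0.11 with only probes of both orientations, and -0.15 to -0.052 without 1 array. That of carriers outside Slc25, -0.11, was -0.090 with a value in each preparation, -0.14 with only probes of both orientations, and -0.18 to -0.065 without 1 array. With a value in each preparation, metal carriers had -0.065 and organic solute carriers -0.25. Without 1 array these ranged from -0.30 to -0.090 and from -0.31 to -0.094. Features differing between preparations numbered 1 to 25 and those with a dye effect 0 to 256 without 1 array, with 0 to 1 Slc genes each. Of 469 values of 30 named genes under alternatives, 437 kept their side of the threshold, 20 passed newly and 12 no longer passed, and no called gene changed sign. The sign turned in 11 of them, all of genes that were not called. Arrays scaled to equal spread ended the calls of Slc1a3, Slc6a9 and Slc7a7, and requiring a value in each preparation those of every called gene but Slc44a1. The cause was not tested. Each ratio already sets both cell lines against each other within an array. No paired analysis was possible because repetition numbers name arrays within a preparation and link no samples beyond that. Spot intensities were not analysed here, so signal over background is unknown.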

Other observations

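Some Slc genes were measured by the 13 probes whose annotation names several genes, which were left out of the description above. A probe named for Slc39a10, Dnah7a and Dnah7b had 0.88 on A2 and 1.32 on B1. A probe named for Slc12a2, the sodium-potassium-chloride cotransporter, and 9330166H04Rik had 0.19, -0.43, -0.58, -0.53 and 0.41 on A1, A2, A3, B1 and B2 and did not pass limma's test (adjusted p = 0.609). A probe of Slc25a51 and 9130208E07Rik had -0.08 as its mean and did not pass. A probe of Slc16a6 and Amz2 lay at 0.00, and one of Slc5a3, Mrps6 and BF642829 at 0.03.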
